A study of Mus musculus with 12 samples.

Results

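The genes described here are the collagens, the laminins and 6 further matrix genes (Nid1, Nid2, Hspg2, Fn1, Sparc and Agrn) in mouse embryonic stem cells that had been directed to endoderm or mesoderm for 5 days with or without a change at the Arid4b locus. They were chosen by symbol, with Col1a1, Col1a2 and Col3a1 left out, and the symbols matched 58 of the 19680 genes listed: 41 collagens, 11 laminins and the 6 others. Of these, 37 had at least 50 counts over all libraries (22 collagens, 9 laminins and all 6 others) and 21 had fewer. The 37 are the 31 genes tested below together with 6 that were not tested, among them Col16a1, Lama2, Col22a1, Col8a2 and Col4a6. RNA-seq counts were available for 12 libraries of the embryonic stem cell line CJ9, in 4 groups of 3: arid4b∆ cells directed to endoderm, WT cells directed to endoderm, arid4b∆ cells directed to mesoderm and WT cells directed to mesoderm. All groups shared the cell line and the 5 days of direction, the allele is given as arid4b∆ with no further description, and neither the agents used for direction nor the number of clones behind each genotype is given in the sources used here. The labels do not state whether the libraries within a group are separate cultures, and p-values then reflect the spread among these 12 libraries, part or all of which may be technical.

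Basement membranes are thin sheets of matrix beneath epithelia, built on a laminin polymer and a collagen IV network that nidogens and the heparan sulfate proteoglycans perlecan (encoded by Hspg2) and agrin (Agrn) tie together. Each laminin is a trimer of an alpha, a beta and a gamma chain, and cells hold on to it through integrins and dystroglycan. In the early embryo such a sheet lies between the epiblast and the visceral endoderm, it is broken down where cells leave the epiblast through the primitive streak, and fibronectin (Fn1) forms part of the matrix on which the new mesoderm moves.

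Total counts per library were 10351074 to 35660108, of which the ribosomal precursor row Rn45s took 79.7% to 82.4%, and 1949299 to 6678893 counts remained without it. Levels are given in CPM, the usual library-size scaling of counts, taken over what remained after its adjustment by trimmed means (TMM), and a count of 3 corresponded to 0.449 to 1.54 CPM before scaling. Whole-gene Arid4b counts were not lower in the libraries labelled arid4b∆: they were 42.7, 51.0 and 44.9 CPM in arid4b∆ endoderm, against 41.6, 44.6 and 36.7 CPM in WT endoderm, and 44.7, 41.5 and 47.5 CPM in arid4b∆ mesoderm, against 36.9, 46.4 and 42.8 CPM in WT mesoderm. Counts over the whole gene cannot check a deletion of part of it. The summed level of 8 definitive endoderm markers was 3.24 to 9.59 CPM in arid4b∆ endoderm, against 161 to 254 CPM in WT endoderm, and that of 10 streak and mesoderm markers was 24.6 to 35.7 CPM in arid4b∆ mesoderm, against 238 to 506 CPM in WT mesoderm. The arid4b∆ libraries were low in the defining markers of the lineage they are labelled with. The streak and mesoderm markers Mesp1 and Msgn1 had no count in arid4b∆ mesoderm. The endoderm marker Cer1 had none in arid4b∆ mesoderm or in WT mesoderm. WT endoderm libraries also held 239 to 262 CPM of the streak and mesoderm markers. The summed level of 8 pluripotent cell markers was 457 to 500.4 CPM in arid4b∆ endoderm, against 383 to 443 CPM in WT endoderm, and 482 to 553 CPM in arid4b∆ mesoderm, against 323 to 399 CPM in WT mesoderm. At an edgeR adjusted p below 0.05, 4 of the 8 were higher and 1 lower in arid4b∆ endoderm, and 3 higher and 1 lower in arid4b∆ mesoderm. The lower gene was Nanog in both lineages (edgeR adjusted p = 1.18e-06 and 0.00836). Pou5f1, the highest of the 8, did not pass in either (0.690 and 0.2495). The part of these marker differences in the values of the matrix genes was not tested.

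Of the 58 genes, 31 passed the filter on low counts and were tested among 11635 genes: 18 collagens, 7 laminins and the 6 others. A gene is called here when edgeR's quasi-likelihood test gave an adjusted p below 0.05 (Benjamini-Hochberg over all genes tested). In endoderm, 8 of the 31 (25.8%) were called between arid4b∆ and WT, against 12.7% of all genes. Col10a1, Col12a1, Col18a1 and Col5a2 were higher in arid4b∆ (4 of 31, against 5.78% of all genes), and Col23a1, Lama5, Lamb1 and Lamc1 were lower (4 of 31, against 6.92%). In mesoderm, 7 of the 31 (22.6%) were called, against 19.1% of all genes, a share near the background. Col15a1, Col18a1 and Col5a2 were higher in arid4b∆ (3 of 31, against 8.93%), and Agrn, Hspg2, Lamb1 and Sparc were lower (4 of 31, against 10.2%). With 1 library left out the counts were 3 to 10 in endoderm and 4 to 9 in mesoderm. In endoderm 3 were called without WT library 2 and 5 without WT library 3, and 9 without arid4b∆ library 3, of which 8 were higher and 1 lower. In mesoderm 4 were called without arid4b∆ library 2 or without WT library 3, with 1 higher and 3 lower each time. The 2 comparisons use separate libraries, and Col18a1, Col5a2 and Lamb1 were called in both, in the same direction. The arid4b∆ and WT libraries did not overlap for 10 of the 31 genes in endoderm, against 30.2% of all genes, and for 9 of the 31 in mesoderm, against 32.8%, both near the background. The median log2 fold change of the 31 was 0.24 in endoderm and 0.12 in mesoderm, against −0.0037 and 0.0071 for all genes. Col15a1 passed the filter through its arid4b∆ mesoderm libraries, Col10a1 through its arid4b∆ endoderm libraries and Col23a1 through its WT endoderm libraries. Each was highest in that group, so the counts and medians above describe the genes that passed and not all 58.

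**Figure D1:**
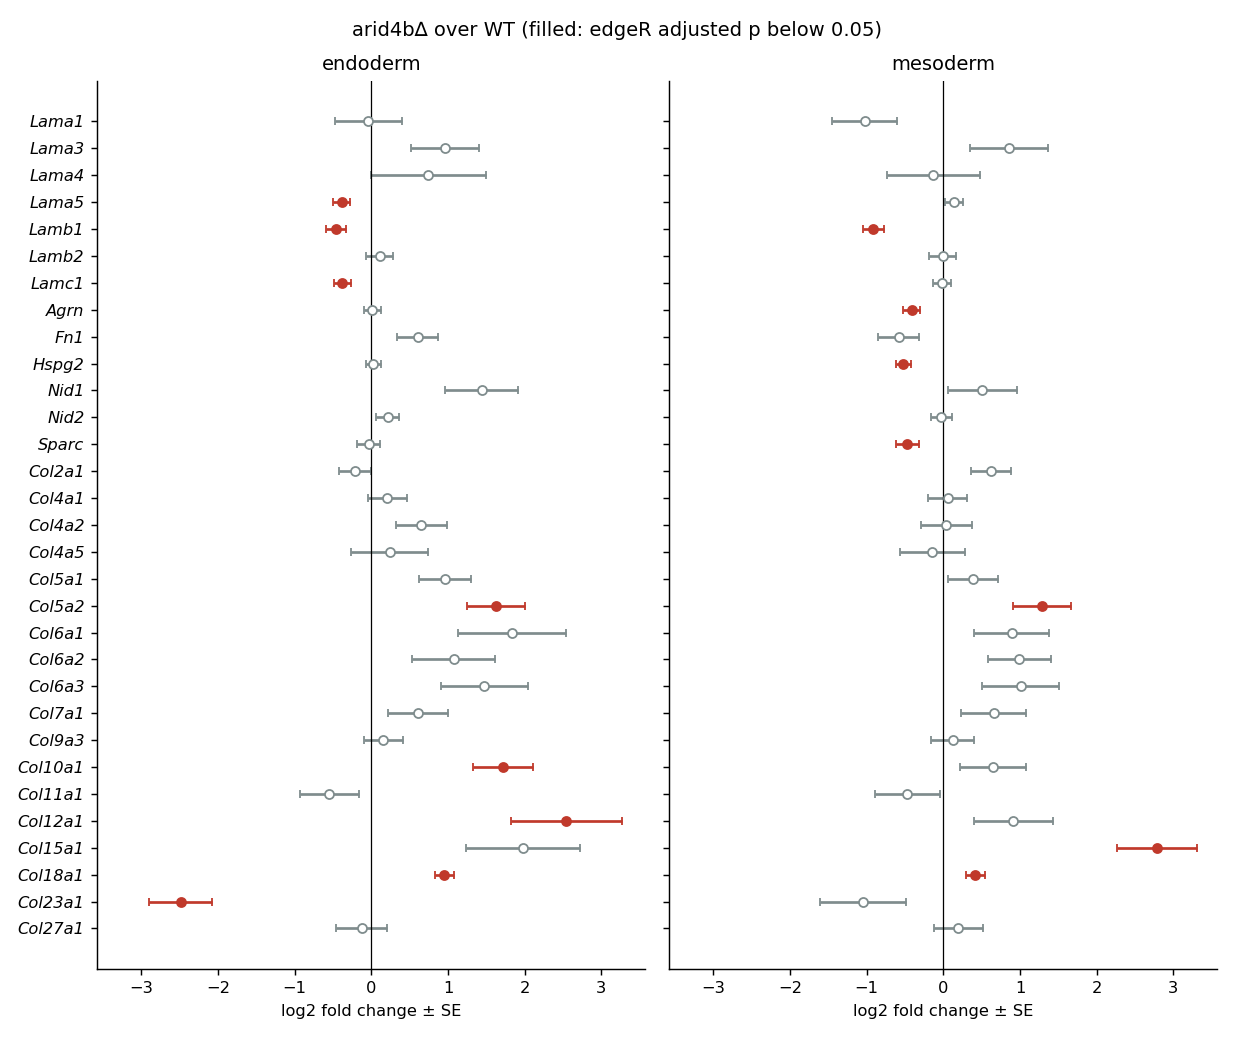
Log2 fold change of arid4b∆ over WT for each of the 31 tested genes, with its standard error as a horizontal bar, in endoderm (left) and mesoderm (right). Filled points mark edgeR adjusted p-values below 0.05: 8 in endoderm, with Col12a1 highest at 2.55 and Col23a1 lowest at −2.49, and 7 in mesoderm, with Col15a1 highest at 2.79 and Lamb1 lowest at −0.91.

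The DNA upstream of these genes is shown for Lamb1, which was called lower in both lineages, and for Col18a1, which was called higher in both. It is also shown for Hspg2, whose difference between the lineages was called but not under all settings (below), and for the stretch from which Col4a1 and Col4a2 are both read. Sequences are those of RefSeq on GRCm38.p6, from 250 bases before to 50 bases after an annotated start, written in the direction of the gene (the shared stretch on the plus strand). Capitals mark the GC box GGGCGG and the CCAAT box CCAAT, each on either strand (CCGCCC and ATTGG); no TATA box (TATAAA, or TTTATA on the other strand) is in these 4 stretches.
Lamb1, chr12:31265043-31265342, plus strand: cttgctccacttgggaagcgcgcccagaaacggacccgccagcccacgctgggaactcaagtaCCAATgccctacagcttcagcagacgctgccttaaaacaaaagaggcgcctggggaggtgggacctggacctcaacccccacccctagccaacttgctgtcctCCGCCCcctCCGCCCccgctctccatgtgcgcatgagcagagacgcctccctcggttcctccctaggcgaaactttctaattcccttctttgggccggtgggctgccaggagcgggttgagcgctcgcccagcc
Col18a1, chr10:77166481-77166780, minus strand: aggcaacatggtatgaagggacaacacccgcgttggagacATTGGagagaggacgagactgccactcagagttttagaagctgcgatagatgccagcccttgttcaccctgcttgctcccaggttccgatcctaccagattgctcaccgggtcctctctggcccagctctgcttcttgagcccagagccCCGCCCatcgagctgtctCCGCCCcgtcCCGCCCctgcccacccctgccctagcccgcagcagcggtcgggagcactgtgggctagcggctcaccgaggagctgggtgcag
Hspg2, chr4:137468553-137468852, plus strand: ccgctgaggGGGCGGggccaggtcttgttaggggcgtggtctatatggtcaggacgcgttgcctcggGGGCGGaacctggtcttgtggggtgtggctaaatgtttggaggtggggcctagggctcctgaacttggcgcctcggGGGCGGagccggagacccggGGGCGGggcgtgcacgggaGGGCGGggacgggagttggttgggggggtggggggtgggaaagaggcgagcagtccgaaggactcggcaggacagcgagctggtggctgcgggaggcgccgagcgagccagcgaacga
Col4a1 and Col4a2, chr8:11312777-11312854, plus strand: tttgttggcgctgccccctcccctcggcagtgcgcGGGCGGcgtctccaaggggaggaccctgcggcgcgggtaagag
The Lamb1 window held 2 GC boxes and 1 CCAAT box, the Col18a1 window 3 and 1, the Hspg2 window 5 GC boxes and no CCAAT box. Col18a1 has a second annotated start, whose window held none of the 3 motifs. The shared stretch of 78 bases is common to the windows of Col4a1 and Col4a2, which are read in opposite directions from starts 21 bases apart. Windows were found for 42 of the 58 genes, 47 windows in all. A GC box was in 61.7% of the 47, against 35.7% of 32851 mouse windows of the same length, a CCAAT box in 29.8% against 37.4%, and a TATA box in 8.51% against 13.6%. The median GC content was 60.0% in the 47 windows and 52.7% in all. A match to these letters is a description of the sequence and not evidence that a factor is bound.

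Laminin chains come first among the results. Lama5, Lamb1 and Lamc1 encode an alpha, a beta and a gamma chain that can make up a trimer, and all 3 were lower in arid4b∆ endoderm than in WT endoderm. Lama5 (chr2:180176373-180225904, mm10) had 225, 289.7 and 258 CPM in arid4b∆ endoderm libraries, against 321, 350.0 and 339 CPM in WT endoderm libraries. Lamb1 (chr12:31265146-31329644) had 112, 92.3 and 83.7 CPM in arid4b∆ endoderm, against 154, 126 and 113 CPM in WT endoderm. Lamc1 (chr1:153218922-153332786) had 119, 119 and 102 CPM in arid4b∆ endoderm, against 148, 152 and 141 CPM in WT endoderm. For each of the 3 genes every arid4b∆ library lay below every WT library, by the smallest margin for Lamb1. The log2 fold changes were −0.38 ± 0.11 for Lama5, −0.46 ± 0.13 for Lamb1 and −0.37 ± 0.12 for Lamc1 (SE), with edgeR adjusted p-values of 0.0257, 0.0257 and 0.0349. In bulk libraries, fewer cells of a type and less RNA per cell cannot be told apart. These 3 calls rested on few libraries. The edgeR adjusted p of Lama5 lay between 0.00200 and 0.113 over the alternatives and passed 0.05 without arid4b∆ library 1 (0.113) or 3 (0.0772), without WT library 2 (0.113) or 3 (0.0751) and without library 1 of every group (0.0823). That of Lamb1 lay between 0.000465 and 0.153, and passed 0.05 without arid4b∆ library 2 (0.102) or 3 (0.140) and without WT library 1 (0.153) or 2 (0.0617). That of Lamc1 lay between 0.00408 and 0.170, and passed 0.05 without arid4b∆ library 2 (0.0613) or 3 (0.170) and without WT library 1 (0.0821), 2 (0.135) or 3 (0.0625).

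In mesoderm Lamb1 was lower in arid4b∆ and the 2 chains that can join it were not called. Lamb1 had 88.9, 98.5 and 77.3 CPM in arid4b∆ mesoderm, against 145, 155 and 195 CPM in WT mesoderm, so every arid4b∆ library lay below every WT library. Its log2 fold change was −0.91 ± 0.14, a level 1.88-fold lower, with an edgeR adjusted p of 5.6e-05, and it was called under each of the 13 alternatives run for this comparison. Lama5 had 221, 271 and 265 CPM in arid4b∆ mesoderm, against 218, 204 and 262 CPM in WT mesoderm (log2 fold change 0.14 ± 0.11, edgeR adjusted p = 0.452). Lamc1 had 108, 98.8 and 114 CPM in arid4b∆ mesoderm, against 132, 86.6 and 102 CPM in WT mesoderm (−0.02 ± 0.12, edgeR adjusted p = 0.943). Both pairs of groups overlapped. Set against Lamc1 in the same library, and per length of the genes' exons, Lamb1 stood at a ratio of 0.568 to 0.832 in arid4b∆ mesoderm and of 0.913 to 1.60 in WT mesoderm. The other tested beta chain, Lamb2, was not called, with 13.98, 14.5 and 11.7 CPM in arid4b∆ mesoderm, against 14.5, 10.3 and 14.1 CPM in WT mesoderm (log2 fold change −0.01 ± 0.17). The ratio of Lamb1 to Lamb2 per length was 5.14 to 5.48 in arid4b∆ endoderm, against 7.22 to 8.57 in WT endoderm, and 3.90 to 4.18 in arid4b∆ mesoderm, against 6.13 to 9.20 in WT mesoderm.

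The difference between the genotype's effect in endoderm and in mesoderm was not called for any laminin. It was −0.52 ± 0.16 for Lama5 (edgeR adjusted p = 0.139), 0.46 ± 0.19 for Lamb1 (0.362) and −0.36 ± 0.17 for Lamc1 (0.455), all on the log2 scale. With WT mesoderm library 3 left out, the edgeR adjusted p of the Lama5 difference was 0.0405, and with WT mesoderm library 1 left out that of Lamc1 was 0.0472, over ranges of 0.0159 to 0.335 and 0.0472 to 0.750 among the alternatives. The summed level of 16 extraembryonic endoderm markers, a cell type that makes much laminin and collagen IV, was 123.4 to 142 CPM in arid4b∆ endoderm, against 102 to 116 CPM in WT endoderm, and 137 to 141 CPM in arid4b∆ mesoderm, against 77.3 to 150 CPM in WT mesoderm. Lrp2, an endocytic receptor, was the largest part of the sum. It averaged 107 CPM in arid4b∆ endoderm, against 58.5 CPM in WT endoderm (edgeR adjusted p = 7.36e-05), and 89.0 CPM in arid4b∆ mesoderm, against 52.5 CPM in WT mesoderm (0.000838). Cubn and Dab2 averaged 27.3 and 12.9 CPM in WT mesoderm and were not called between the genotypes. Of the 6 markers tested, Lrp2 was called higher and the transcription factor genes Gata4 and Gata6 lower in arid4b∆ in both lineages. Gata6 averaged 1.09 CPM in arid4b∆ endoderm, against 22.3 CPM in WT endoderm (log2 fold change −4.48 ± 0.31, edgeR adjusted p = 1.46e-09). It is also one of the definitive endoderm markers summed above, and it averaged 2.56 CPM in WT mesoderm. The part of these markers in the laminin values was not tested. No marker of that list was at 0 in the arid4b∆ groups or in WT mesoderm, and Thbd and Afp were at 0 in WT endoderm.

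Lama1, the alpha chain of the embryo's earliest laminins, varied more between libraries of a group than between groups. It had 26.7, 16.1 and 7.48 CPM in arid4b∆ endoderm, against 30.6, 7.20 and 15.0 CPM in WT endoderm, and 21.0, 14.5 and 11.7 CPM in arid4b∆ mesoderm, against 48.6, 12.4 and 29.3 CPM in WT mesoderm. The groups overlapped in both lineages. Its log2 fold change was −0.04 ± 0.44 in endoderm (edgeR adjusted p = 0.978) and −1.03 ± 0.43 in mesoderm (0.0991). The mesoderm value was called with mesoderm libraries alone in the fit (edgeR adjusted p = 0.0366), without WT mesoderm library 2 (0.0358) and without the filter on low counts (2.82e-08), within a range of 2.82e-08 to 0.434 over the alternatives. Lama3 and Lama4, at 0.172 to 4.25 CPM, were called in neither lineage.

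**Figure D2:**
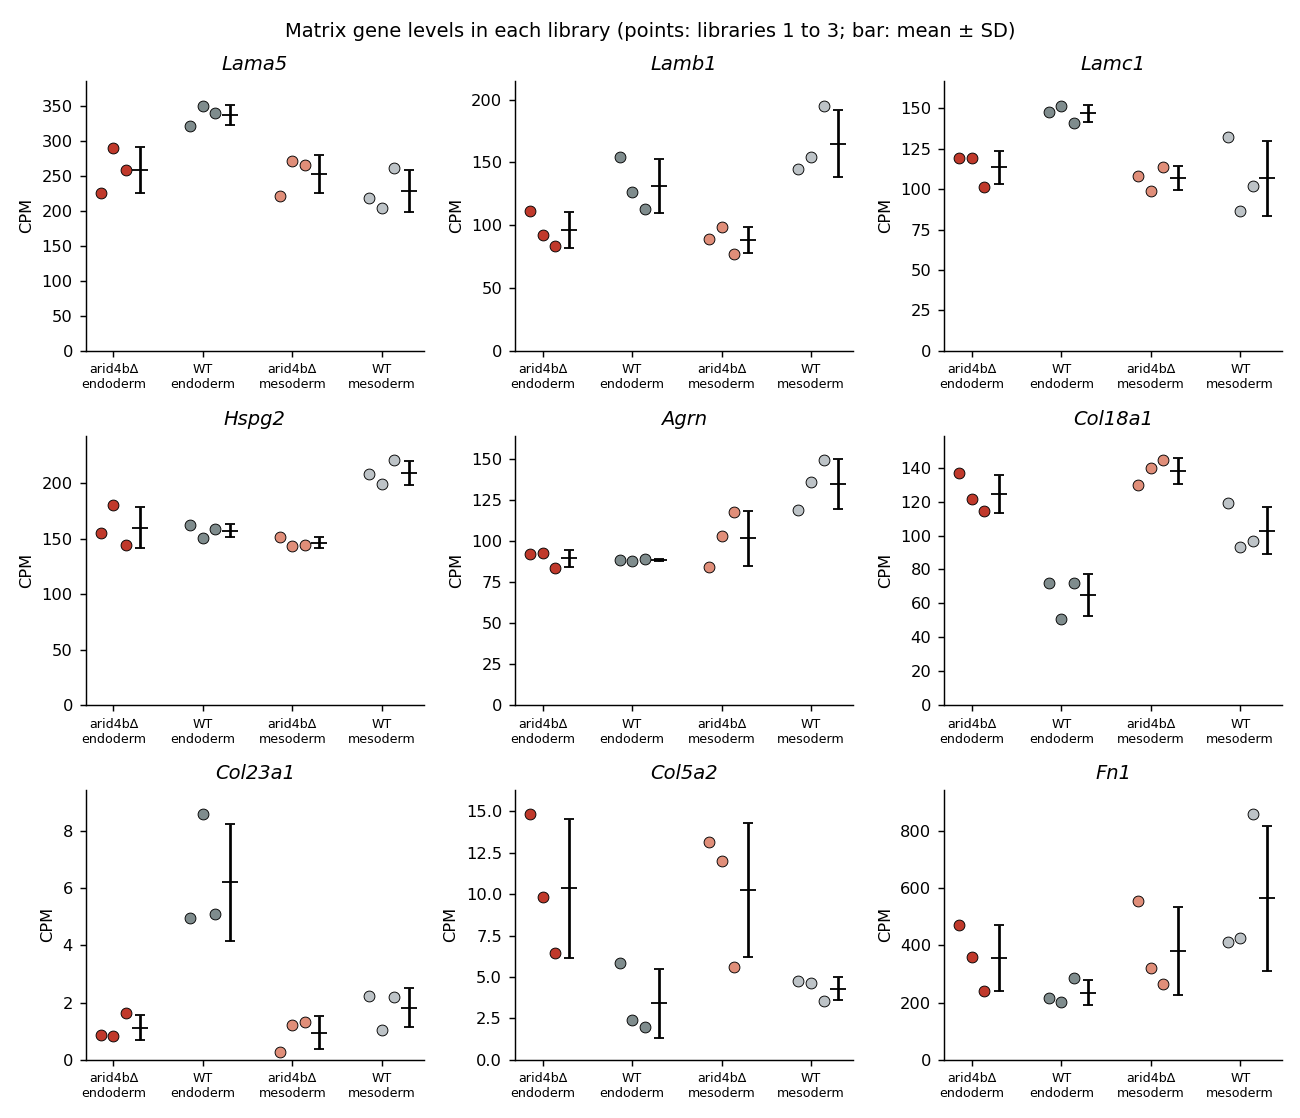
Level in CPM (vertical axis, from 0) of Lama5, Lamb1, Lamc1, Hspg2, Agrn, Col18a1, Col23a1, Col5a2 and Fn1 in each of the 12 libraries, with arid4b∆ left of WT within each lineage; points are libraries and the bar beside them is the mean ± SD of each group of 3. Lamb1 averaged 88.2 ± 10.6 CPM in arid4b∆ mesoderm and 165 ± 26.8 CPM in WT mesoderm, and Hspg2 146 ± 4.82 CPM in arid4b∆ mesoderm and 209 ± 10.7 CPM in WT mesoderm.

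Hspg2 and Agrn, which encode heparan sulfate proteoglycans, were lower in arid4b∆ mesoderm and were not called in endoderm. Hspg2 (perlecan, chr4:137468751-137570630) had 152, 143 and 144 CPM in arid4b∆ mesoderm, against 208, 199 and 221 CPM in WT mesoderm. It had 155, 180.1 and 144 CPM in arid4b∆ endoderm, against 162, 150.4 and 158 CPM in WT endoderm. The mesoderm groups were well apart and the endoderm groups overlapped. The log2 fold change was −0.52 ± 0.10 in mesoderm (edgeR adjusted p = 0.000476) and 0.03 ± 0.09 in endoderm (0.900). Their difference of 0.55 ± 0.13 was the one call among the 31 genes (3.23%, against 1.4% of all genes, 0.627% positive and 0.774% negative, so 1 gene is near the background), with an edgeR adjusted p of 0.0410. That call was lost, with an edgeR adjusted p of 0.0565 to 0.146, when any of 8 of the 12 libraries was left out: arid4b∆ endoderm library 2 (0.146), WT endoderm library 1 (0.0652), 2 (0.143) or 3 (0.0886), arid4b∆ mesoderm library 1 (0.0565), 2 (0.112) or 3 (0.111), or WT mesoderm library 3 (0.0832). Over all alternatives it lay between 0.0126 and 0.146.

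Agrn (agrin, which binds laminin and dystroglycan) had 84.2, 103 and 117 CPM in arid4b∆ mesoderm, against 119, 136 and 149 CPM in WT mesoderm. It had 91.8, 92.4 and 83.5 CPM in arid4b∆ endoderm, against 88.4, 87.6 and 89.0 CPM in WT endoderm. The mesoderm groups met closely without overlapping. Fitted with edgeR, its log2 fold change was −0.41 ± 0.11 in mesoderm (edgeR adjusted p = 0.0113) and 0.01 ± 0.11 in endoderm (0.962), and the difference between the 2 was not called (0.42 ± 0.16, edgeR adjusted p = 0.255). The mesoderm call was lost without arid4b∆ library 1 (edgeR adjusted p = 0.0874) or WT library 3 (0.0842), within a range of 0.000967 to 0.0874.

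Nidogens link laminin to collagen IV, and neither was called between the genotypes. Nid1 had 30.5, 11.2 and 9.91 CPM in arid4b∆ endoderm, against 11.1, 2.74 and 5.65 CPM in WT endoderm, and 22.4, 12.9 and 11.2 CPM in arid4b∆ mesoderm, against 17.5, 2.58 and 9.59 CPM in WT mesoderm. In each of the 4 groups the highest value was that of library 1. Its log2 fold change was 1.44 ± 0.48 in endoderm (edgeR adjusted p = 0.0523) and 0.51 ± 0.45 in mesoderm (0.489). The endoderm value was called without arid4b∆ library 2 (edgeR adjusted p = 0.0407) or 3 (0.0289), without WT library 1 (0.0198), with endoderm libraries alone in the fit (0.0305) and without library 1 of every group (0.00764), within a range of 2.37e-09 to 0.302. Nid2 had 39.8, 36.2 and 43.5 CPM in arid4b∆ endoderm, against 37.5, 29.0 and 37.6 CPM in WT endoderm, and 52.3, 52.9 and 65.6 CPM in arid4b∆ mesoderm, against 49.9, 48.9 and 70.9 CPM in WT mesoderm. These groups overlapped, with log2 fold changes of 0.22 ± 0.15 and −0.03 ± 0.14 (edgeR adjusted p = 0.399 and 0.931). Set per length of exon, Nid2 stood above Nid1 in all 12 libraries, by 1.75 to 5.89 times in arid4b∆ endoderm, against 4.56 to 14.2 times in WT endoderm, and by 3.14 to 7.86 times in arid4b∆ mesoderm, against 3.83 to 25.5 times in WT mesoderm.

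Sparc, a collagen-binding protein secreted into basement membranes, had 88.9, 69.5 and 60.3 CPM in arid4b∆ mesoderm, against 116, 96.9 and 89.4 CPM in WT mesoderm. The lowest WT library stood just above the highest arid4b∆ library. It had 95.9, 68.6 and 62.1 CPM in arid4b∆ endoderm, against 87.9, 71.8 and 70.1 CPM in WT endoderm, which overlapped. The log2 fold change was −0.47 ± 0.15 in mesoderm (edgeR adjusted p = 0.0365) and −0.03 ± 0.15 in endoderm (0.932). The mesoderm call was lost without arid4b∆ library 2 (edgeR adjusted p = 0.115) or 3 (0.182) and without WT library 1 (0.145) or 2 (0.0537), within a range of 0.000363 to 0.182.

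Fn1 (fibronectin, the adhesive protein of the matrix around migrating cells) had the highest mean CPM of these genes in arid4b∆ endoderm and in both mesoderm groups. It had 469.8, 359.9 and 240.1 CPM in arid4b∆ endoderm, against 215, 203 and 285 CPM in WT endoderm. It had 554, 320.3 and 264 CPM in arid4b∆ mesoderm, against 411, 427 and 858 CPM in WT mesoderm. Both pairs of groups overlapped, with arid4b∆ library 1 high in both lineages and WT mesoderm library 3 highest of all. On the log2 scale its change was 0.60 ± 0.27 in endoderm (edgeR adjusted p = 0.156) and −0.58 ± 0.26 in mesoderm (0.133), and their difference was 1.19 ± 0.38 (0.158), so none was called. With endoderm libraries alone in the fit, the endoderm value was called (edgeR adjusted p = 0.0267, range 7.41e-07 to 0.502). The mesoderm value was called without arid4b∆ mesoderm library 1 (edgeR adjusted p = 0.0182), without WT mesoderm library 1 (0.0402) and without library 1 of every group (0.000470), within a range of 1.18e-06 to 0.775. Under the same settings the difference was called (edgeR adjusted p = 0.0327, 0.0343 and 0.00810, range 1.94e-12 to 0.730).

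The chains of collagen IV, the network-forming collagen of basement membranes, were not called between the genotypes. Col4a1 had 88.6, 56.7 and 45.1 CPM in arid4b∆ endoderm, against 70.7, 44.2 and 48.6 CPM in WT endoderm, and 75.2, 51.4 and 48.3 CPM in arid4b∆ mesoderm, against 84.1, 37.6 and 43.1 CPM in WT mesoderm. Col4a2 had 51.7, 22.7 and 22.0 CPM in arid4b∆ endoderm, against 30.0, 12.003 and 19.5 CPM in WT endoderm, and 43.1, 25.8 and 23.2 CPM in arid4b∆ mesoderm, against 42.2, 17.0 and 26.6 CPM in WT mesoderm. Library 1 was highest in all 4 groups for both genes, and all groups overlapped. The log2 fold changes in endoderm were 0.21 ± 0.25 for Col4a1 and 0.65 ± 0.34 for Col4a2 (edgeR adjusted p = 0.666 and 0.233), and in mesoderm 0.06 ± 0.26 and 0.04 ± 0.33 (0.918 and 0.955). The endoderm value of Col4a2 was called without the filter on low counts (edgeR adjusted p = 0.000297), within a range of 0.000297 to 0.778 over the alternatives. Col4a1 (chr8:11198423-11312889) and Col4a2 (chr8:11312805-11449287) overlap by 85 bases at the shared start printed above, and whether the counting used strand is not given in the sources used here. Col4a1 exceeded Col4a2 per length in all 12 libraries, by 1.44 to 3.27 times. Of the other collagen IV chains, Col4a5 was tested, at 1.13 to 5.87 CPM, and not called, Col4a6 had 50 counts in all, and Col4a3 and Col4a4 had 3 and 5.

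The multiplexins, collagens of the basement membrane zone that carry heparan or chondroitin sulfate chains and end in an endostatin domain, are Col18a1 and Col15a1. Col18a1 was called higher in arid4b∆ in both lineages and Col15a1 in mesoderm. Col18a1 (chr10:77052178-77166530) had 137, 122 and 114 CPM in arid4b∆ endoderm, against 72.2, 50.9 and 71.8 CPM in WT endoderm. It had 129.7, 140.0 and 144 CPM in arid4b∆ mesoderm, against 119, 93.2 and 96.6 CPM in WT mesoderm. The 6 arid4b∆ libraries were alike, and the WT endoderm libraries were the lowest of the 12. The log2 fold change was 0.95 ± 0.12 in endoderm, a level 1.93-fold higher (edgeR adjusted p = 1.21e-05), and 0.42 ± 0.12 in mesoderm (0.0187). The difference between the 2 was not called (0.53 ± 0.17, edgeR adjusted p = 0.173). The endoderm call was kept in all 13 alternatives, while the mesoderm call was lost without arid4b∆ library 2 (edgeR adjusted p = 0.0518) or 3 (0.0682) and without WT library 2 (0.0673) or 3 (0.0889), within a range of 0.00139 to 0.0889.

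Col15a1, the other multiplexin, was close to the limit of detection outside arid4b∆ mesoderm. It had 7.83, 5.54 and 3.20 CPM in arid4b∆ mesoderm, against 1.25, 1.03 and 0.337 CPM in WT mesoderm, which are 28, 18 and 12 counts against 5, 2 and 2. It had 1.16, 1.52 and 1.21 CPM in arid4b∆ endoderm, against 0.582, 0.343 and 0 CPM in WT endoderm. Neither pair of groups overlapped. Fitted with edgeR, its log2 fold change was 2.79 ± 0.52 in mesoderm, a level 6.91-fold higher (edgeR adjusted p = 0.000556), called under each of the 13 alternatives, and 1.98 ± 0.74 in endoderm (0.0867). The gene passed the filter only through the arid4b∆ mesoderm libraries and WT mesoderm was near the floor of 3 counts a library, so its fold change is imprecise and its call describes a gene that had to differ there. The difference between the lineages was not called (−0.80 ± 1.16, edgeR adjusted p = 0.890).

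Of the fibril-forming and fibril-associated collagens, Col5a2 and Col12a1 were called between the genotypes, each higher in arid4b∆. Both were highest in library 1 of every group, as the summed fibroblast markers were. The fibril-forming Col2a1, Col11a1 and Col27a1 were not called between the genotypes and were not highest in library 1 throughout. Col5a2, a chain of the collagen V that starts fibrils, had 14.8, 9.82 and 6.47 CPM in arid4b∆ endoderm, against 5.82, 2.40 and 1.98 CPM in WT endoderm, and 13.1, 11.998 and 5.60 CPM in arid4b∆ mesoderm, against 4.74, 4.64 and 3.53 CPM in WT mesoderm. The arid4b∆ libraries lay above the WT libraries in each lineage. The log2 fold change was 1.63 ± 0.38 in endoderm (edgeR adjusted p = 0.00545) and 1.28 ± 0.38 in mesoderm (0.0199). The endoderm call was lost without WT library 2 (edgeR adjusted p = 0.0615, range 2.83e-07 to 0.0615), and the mesoderm call without arid4b∆ library 1 (0.104) or 2 (0.0765) or WT library 3 (0.110), within a range of 9.71e-05 to 0.110. Its partner chain Col5a1 was not called (0.96 ± 0.34 in endoderm, edgeR adjusted p = 0.0639, and 0.38 ± 0.33 in mesoderm, 0.470). Col12a1, a collagen on the surface of fibrils, had 4.07, 4.06 and 2.02 CPM in arid4b∆ endoderm, against 0.873, 0.343 and 0.565 CPM in WT endoderm. Its log2 fold change there was 2.55 ± 0.72 (edgeR adjusted p = 0.0219), lost without arid4b∆ library 2 (0.0885) or WT library 2 (0.139) or 3 (0.0656), within a range of 4.10e-05 to 0.139.

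The chains of collagen VI, which forms beaded filaments next to basement membranes, were not called between the genotypes. Their log2 fold changes were 1.84 ± 0.70 for Col6a1, 1.08 ± 0.54 for Col6a2 and 1.48 ± 0.57 for Col6a3 in endoderm, with edgeR adjusted p-values of 0.0949, 0.221 and 0.0986, and 0.89 ± 0.49, 0.99 ± 0.41 and 1.01 ± 0.50 in mesoderm, with 0.224, 0.0982 and 0.172. These results depended on the settings. Without the filter on low counts, Col6a1, Col6a2 and Col6a3 were called in both lineages. With endoderm libraries alone in the fit, Col6a1 was called. Col6a1 and Col6a3 were called in endoderm without arid4b∆ library 3 or WT library 1. In mesoderm, Col6a2 was called without arid4b∆ library 3, and Col6a1 and Col6a2 without WT library 1. With any other single library left out, none was called. Within groups the libraries were far apart. Col6a3 had 48.8, 19.5 and 8.09 CPM in arid4b∆ endoderm, against 19.2, 3.60 and 5.37 CPM in WT endoderm, and 58.2, 34.1 and 19.2 CPM in arid4b∆ mesoderm, against 27.7, 7.73 and 16.3 CPM in WT mesoderm.

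The fibrillar collagens left out of the set and the fibroblast markers were also highest in library 1 of every group. The sum of Col1a1, Col1a2 and Col3a1 was 172, 84.7 and 42.1 CPM in arid4b∆ endoderm, against 54.1, 12.3 and 17.0 CPM in WT endoderm, and 136, 68.6 and 56.0 CPM in arid4b∆ mesoderm, against 66.8, 13.4 and 33.0 CPM in WT mesoderm. Col1a1 had a log2 fold change of 2.11 ± 0.45 in endoderm (edgeR adjusted p = 0.00280) and of 1.16 ± 0.41 in mesoderm (0.0547). The summed level of 14 fibroblast and feeder markers was 87.2 to 286 CPM in arid4b∆ endoderm, against 31.0 to 89.3 CPM in WT endoderm, and 99.2 to 229 CPM in arid4b∆ mesoderm, against 31.9 to 113 CPM in WT mesoderm. No marker of that list was at 0 in either arid4b∆ group, Lum, Fap and S100a4 were at 0 in WT endoderm, and Fap was at 0 in WT mesoderm. Of the 9 of these markers that were tested, 4 were called higher in arid4b∆ endoderm (Postn, Fbln2, Col1a1 and Col1a2), against 5.78% of all genes, and 1 in arid4b∆ mesoderm (Fbln2), near the 8.93% of all genes. Col12a1, Col4a1, Col4a2, Col4a5, Col5a1, Col5a2, Col6a1, Col6a2, Col6a3, Lama1, Lama4, Nid1 and Sparc were highest in library 1 in all 4 groups, 13 of the 31 genes (41.9%) against 2.84% of all genes tested. The part of fibroblast RNA in the values of these genes was not tested. Without library 1 of every group, Col5a2 and Col12a1 were called in endoderm and Col5a2 in mesoderm as before, Col5a1, Col6a1, Col6a3 and Nid1 were called in endoderm as well, and Col2a1, Col6a2, Col6a3 and Fn1 in mesoderm.

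**Figure D3:**
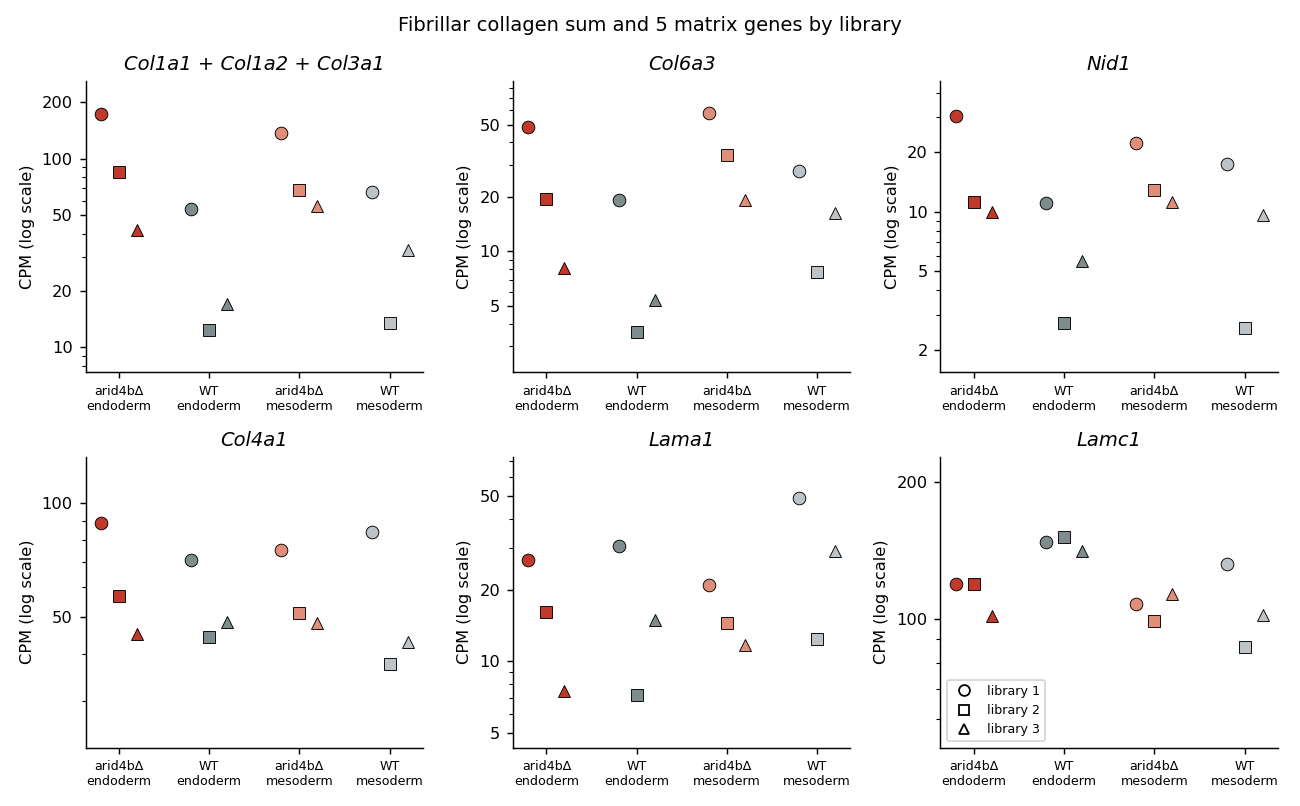
Level in CPM (log scale) of the sum of Col1a1, Col1a2 and Col3a1 and of 5 matrix genes in each library, with arid4b∆ left of WT within each lineage; circles, squares and triangles are libraries 1, 2 and 3. The circle is highest in each group for the fibrillar sum (172, 54.1, 136 and 66.8 CPM from left to right), Col6a3, Nid1, Col4a1 and Lama1, and not for Lamc1 in WT endoderm or arid4b∆ mesoderm.

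Of the remaining collagens, Col10a1 and Col23a1 were called in endoderm, at low levels. Col10a1, a short-chain collagen known from cartilage, had 3.20, 5.59 and 4.65 CPM in arid4b∆ endoderm, against 0.873, 2.06 and 0.848 CPM in WT endoderm (log2 fold change 1.72 ± 0.40, edgeR adjusted p = 0.00540). Col23a1, a collagen anchored in the cell membrane, had 0.872, 0.847 and 1.62 CPM in arid4b∆ endoderm, against 4.95, 8.57 and 5.09 CPM in WT endoderm, which are 3, 5 and 8 counts against 17, 50 and 18. Neither gene's libraries overlapped. The log2 fold change of Col23a1 was −2.49 ± 0.41, a level 5.60-fold lower (edgeR adjusted p = 0.000215), and both endoderm calls were made under each of the 13 alternatives. Col23a1 passed the filter only through the WT endoderm libraries, where it is high, so its calls against them describe a gene that had to differ there. Likewise Col10a1 passed it only with the arid4b∆ endoderm libraries, where it is highest, so its endoderm call has the same limit. In mesoderm Col10a1 and Col12a1 were not called (0.65 ± 0.43 and 0.91 ± 0.52, edgeR adjusted p = 0.326 and 0.241). There Col23a1 had 0.280, 1.23 and 1.33 CPM in arid4b∆, against 2.24, 1.03 and 2.19 CPM in WT (−1.05 ± 0.56, edgeR adjusted p = 0.209), and the difference between the lineages was not called (−1.44 ± 0.75, 0.536). Col2a1, Col7a1, Col9a3, Col11a1 and Col27a1 were called in neither lineage, with log2 fold changes between −0.55 and 0.60 in endoderm and between −0.47 and 0.66 in mesoderm.

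Between endoderm and mesoderm, 10 of the 31 genes were called in WT cells (32.3%, against 9.84% of all genes) and 1, lower, in arid4b∆ cells (3.23%, against 1.86% in either direction and 0.902% lower, near the background). In WT cells, endoderm held more Lama5, Lamc1, Col2a1 and Col23a1 than mesoderm (4 of 31, against 4.41% of all genes) and less Agrn, Hspg2, Nid2, Fn1, Col18a1 and Col6a1 (6 of 31, against 5.43%). The endoderm and mesoderm libraries did not overlap for 13 of the 31 genes in WT, against 24.6% of all genes, and for 3 in arid4b∆, against 18.2%, and the median log2 ratio of endoderm to mesoderm was −0.47 in WT and 0.0051 in arid4b∆, against 0.0081 and −0.0072 for all genes. The WT comparison shares its libraries with the 2 comparisons of genotypes above. Whether a lineage difference itself changed with genotype is the same test as the difference of genotype effects between lineages, and it was called for Hspg2 alone of the 31.

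Both laminin chains called between the WT lineages were higher in endoderm. Endoderm over mesoderm, the log2 ratio was 0.56 ± 0.11 for Lama5 (edgeR adjusted p = 0.00187) and 0.44 ± 0.12 for Lamc1 (0.0160) in WT, and 0.03 ± 0.11 and 0.09 ± 0.12 in arid4b∆ (0.946 and 0.850). The WT call of Lamc1 was lost without WT endoderm library 2 (edgeR adjusted p = 0.0750) and without WT mesoderm library 2 (0.0888) or 3 (0.0923), within a range of 0.000327 to 0.0923. Lamb1 was not called in WT (−0.34 ± 0.13, edgeR adjusted p = 0.114) or in arid4b∆ (0.11 ± 0.14, 0.814). The WT value of Lamb1 was called without WT endoderm library 1 (edgeR adjusted p = 0.0395), without WT mesoderm library 1 (0.0374) and without library 1 of every group (0.00241), within a range of 0.00241 to 0.520. Lama1 stood at −0.96 ± 0.41 in WT (edgeR adjusted p = 0.171) and 0.03 ± 0.45 in arid4b∆ (0.995). Its WT value was called without WT endoderm library 1 (edgeR adjusted p = 0.0230) and without library 1 of every group (0.0170), within a range of 2.36e-07 to 0.700.

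Of the linkers and adhesive proteins, 4 were lower in WT endoderm than in WT mesoderm. The log2 ratio was −0.61 ± 0.11 for Agrn (edgeR adjusted p = 0.000593), −0.42 ± 0.09 for Hspg2 (0.00433), −0.76 ± 0.15 for Nid2 (0.00112) and −1.28 ± 0.27 for Fn1 (0.00247). In arid4b∆ the same ratios were −0.19 ± 0.11, 0.13 ± 0.10, −0.52 ± 0.14 and −0.09 ± 0.27, with edgeR adjusted p-values of 0.536, 0.655, 0.0653 and 0.934. The 4 WT calls were kept in all 13 alternatives each. In arid4b∆, Nid2 was called with arid4b∆ libraries alone in the fit (edgeR adjusted p = 0.0218) and without library 1 of every group (0.0499), within a range of 0.00212 to 0.368. Nid1 and Sparc were not called in WT (−0.86 ± 0.52 and −0.40 ± 0.15, edgeR adjusted p = 0.366 and 0.107) or in arid4b∆ (0.06 ± 0.42 and 0.03 ± 0.15, 0.979 and 0.966). The WT value of Sparc was called with WT libraries alone in the fit (edgeR adjusted p = 0.0434) and without library 1 of every group (0.0244), within a range of 0.00392 to 0.319.

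Among collagens, Col18a1 was lower in WT endoderm than in WT mesoderm by a log2 ratio of −0.69 ± 0.13 (edgeR adjusted p = 0.000742), against −0.16 ± 0.12 in arid4b∆ (0.668). Col6a1 had 6.98, 1.54 and 1.70 CPM in WT endoderm, against 25.4, 7.21 and 11.1 CPM in WT mesoderm. Those groups did not overlap, although the lowest mesoderm library lay just above the highest endoderm library. The log2 ratio was −2.29 ± 0.68 (edgeR adjusted p = 0.0342), and the call was lost with DESeq2 (adjusted p = 0.181), without WT endoderm library 2 (0.205) or 3 (0.127) and without WT mesoderm library 1 (0.159), within a range of 5.11e-18 to 0.205. Col2a1, a fibrillar collagen of cartilage and notochord, had 10.8, 12.2 and 9.61 CPM in WT endoderm, against 6.24, 3.61 and 5.05 CPM in WT mesoderm (log2 ratio 1.08 ± 0.24, edgeR adjusted p = 0.00384). Col23a1 stood at 1.67 ± 0.39 (edgeR adjusted p = 0.00543), lost without WT endoderm library 2 (0.0995, range 0.000378 to 0.0995), and it had passed the filter through WT endoderm. Col4a1 and Col4a2 were not called in WT (−0.06 ± 0.26 and −0.61 ± 0.34, edgeR adjusted p = 0.933 and 0.330) or in arid4b∆ (0.09 ± 0.25 and 0.01 ± 0.32, 0.928 and 1.00). The WT value of Col4a2 was called without the filter on low counts (edgeR adjusted p = 0.00227, range 0.00227 to 0.779). In arid4b∆, Col15a1 was lower in endoderm than in mesoderm by −2.03 ± 0.44 (edgeR adjusted p = 0.0179). That call was lost without arid4b∆ endoderm library 2 (edgeR adjusted p = 0.0823) or 3 (0.0804), without arid4b∆ mesoderm library 1 (0.117) or 2 (0.0716) and without library 1 of every group (0.108), within a range of 0.000618 to 0.117.

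**Figure D4:**
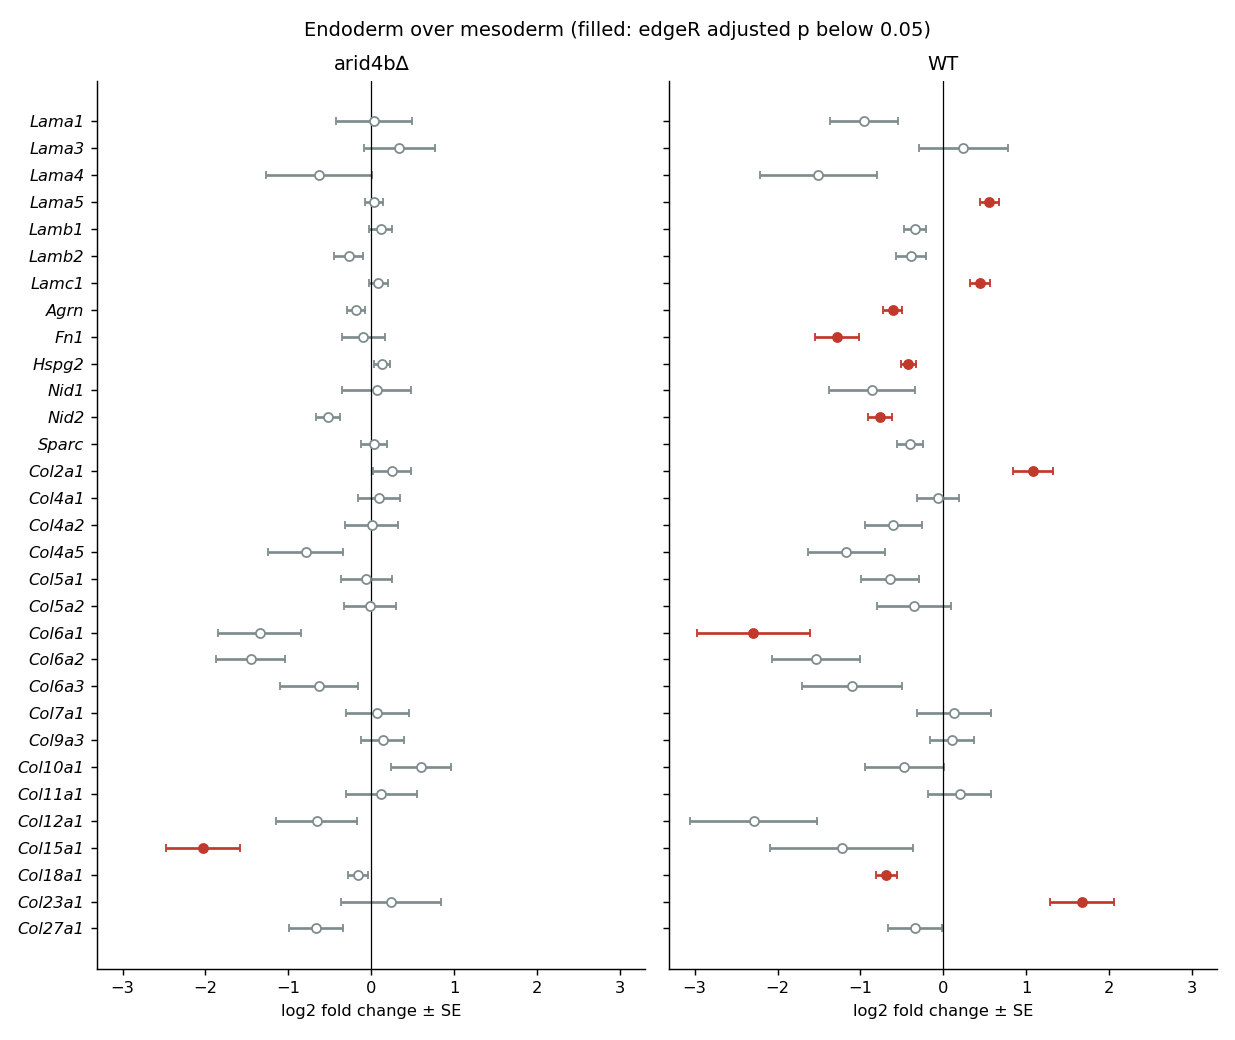
Log2 ratio of endoderm over mesoderm for each of the 31 tested genes, with its standard error as a horizontal bar, in arid4b∆ (left) and WT (right). Filled points mark edgeR adjusted p-values below 0.05: Col15a1 at −2.03 in arid4b∆, and 10 genes in WT, from Col6a1 at −2.29 to Col23a1 at 1.67.

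Levels of different genes were compared as mean CPM per kilobase of annotated exon (GENCODE M21). Fn1 was highest in arid4b∆ endoderm at 30.5, in arid4b∆ mesoderm at 32.5 and in WT mesoderm at 48.4, and Lama5 was highest in WT endoderm at 29.6, where Fn1 was at 20.1. Lama5 followed Fn1 in arid4b∆ endoderm at 22.6 and in arid4b∆ mesoderm at 22.1, and it stood at 20.001 in WT mesoderm, below Sparc at 26.6. Sparc stood at 19.9 in arid4b∆ endoderm, at 20.2 in WT endoderm and at 19.2 in arid4b∆ mesoderm. Neighbours in these orders often lay within the spread of their libraries, as Sparc and Fn1 did in WT endoderm. Col18a1 was among the highest in the arid4b∆ groups, at 17.7 per kilobase in arid4b∆ endoderm against 9.25 in WT endoderm, and at 19.7 in arid4b∆ mesoderm against 14.7 in WT mesoderm. Lamc1 stood at 12.9 to 17.8 and Lamb1 at 8.90 to 16.6 over the 4 groups, Col4a1 at 7.30 to 8.50 and Lama1 at 1.62 to 3.11.

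The 27 genes below the filter were taken as summed counts of the 3 libraries of a group, with no test. Of these, 6 had at least 50 counts over the 12 libraries, among them Col16a1 (92), Lama2 (73), Col22a1 and Col8a2 (56 each) and Col4a6 (50). Among laminins, Lamb3, the beta chain of epithelial anchoring laminin, had 1 count in arid4b∆ endoderm, against 21 in WT endoderm, and 3 in arid4b∆ mesoderm, against 17 in WT mesoderm. Scaled for depth, the ratio of arid4b∆ to WT was 0.0427 in endoderm (95% counting interval 0.00103 to 0.265) and 0.198 in mesoderm (0.0372 to 0.686). Lamc3 had 2 counts in arid4b∆ endoderm, against 8 in WT endoderm, and 1 in arid4b∆ mesoderm, against 17 in WT mesoderm (ratio 0.0661, interval 0.00158 to 0.422). By library its WT mesoderm counts were 1, 2 and 14, so most of them came from library 3 alone. Lama2, the alpha chain of muscle laminin, ran the other way, with 37 counts in arid4b∆ endoderm, against 7 in WT endoderm, and 24 in arid4b∆ mesoderm, against 5 in WT mesoderm. Its ratios were 4.74 (2.08 to 12.6) in endoderm and 5.40 (2.02 to 18.1) in mesoderm. By library Lama2 had 23, 14 and 0 counts in arid4b∆ endoderm, against 6, 1 and 0 in WT endoderm, and 13, 6 and 5 in arid4b∆ mesoderm, against 4, 0 and 1 in WT mesoderm. Library 1 held the most in every group, as for the fibroblast markers above, and arid4b∆ endoderm library 3 held none; their part in the ratios was not tested. These exact binomial intervals cover counting error between pooled libraries and not the spread between libraries.

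The low collagens gave few counts to compare. Col13a1, a membrane collagen like Col23a1, had 1 count in arid4b∆ endoderm, against 8 in WT endoderm, and 0 in arid4b∆ mesoderm, against 15 in WT mesoderm. Col5a3, the other chain of collagen V, had 16 counts in arid4b∆ endoderm, against 2 in WT endoderm, and 15 in arid4b∆ mesoderm, against 7 in WT mesoderm. Col16a1 had 29 counts in arid4b∆ endoderm, against 15 in WT endoderm, and 31 in arid4b∆ mesoderm, against 17 in WT mesoderm. Col4a6 had 8 counts in arid4b∆ endoderm, against 14 in WT endoderm, and 6 in arid4b∆ mesoderm, against 22 in WT mesoderm. Col22a1 had 9 counts in arid4b∆ endoderm, against 19 in WT endoderm, and 14 in arid4b∆ mesoderm, against 14 in WT mesoderm. Col8a2 had 9 counts in arid4b∆ endoderm, against 21 in WT endoderm, and 15 in arid4b∆ mesoderm, against 11 in WT mesoderm. Of the rest, Col8a1 had 49 counts in all, Col14a1 48, Col24a1 44, Col11a2 36, Col9a2 33, Col25a1 29, Col17a1 27, Col20a1 25 and Col26a1 11, and 8 collagens, with Col4a3 and Col4a4 among them, had under 10.

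The genes that fold, process, bind and cut these proteins were read from 4 lists. Their counts are read against the shares of all genes given above, 5.78% higher and 6.92% lower in endoderm and 8.93% higher and 10.2% lower in mesoderm, and with lists of this size a count of 1 or 2 is near them. Of 25 tested genes of collagen biosynthesis and crosslinking, 1 was higher in arid4b∆ endoderm, the crosslinking oxidase Lox at 2.43 ± 0.70 on the log2 scale (edgeR adjusted p = 0.0243), and none lower. In mesoderm 1 was lower and none higher: Pxdn, the peroxidase that crosslinks collagen IV, at −0.56 ± 0.13 (edgeR adjusted p = 0.00403). The list's median log2 fold change was 0.20 in endoderm and 0.11 in mesoderm, beside −0.0037 and 0.0071 for all genes. Of 21 tested matrix receptors, 4 were higher and 1 lower in arid4b∆ endoderm, with Cd44, the hyaluronan receptor, at 1.08 ± 0.27 (edgeR adjusted p = 0.0103), and 5 were lower and none higher in arid4b∆ mesoderm. Those 5 included the laminin receptors Bcam at −0.86 ± 0.19 (edgeR adjusted p = 0.00212) and Dag1, dystroglycan, at −0.36 ± 0.10 (0.0164), and the collagen receptor Ddr1 at −0.60 ± 0.15 (0.00726).

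Of 19 tested genes of other basement membrane and pericellular matrix proteins, 4 were higher and 4 lower in arid4b∆ endoderm, and 2 were higher and 5 lower in arid4b∆ mesoderm. Frem2, which with Fras1 forms a complex at the basement membrane under embryonic epithelia, averaged 10.3 CPM in arid4b∆ endoderm, against 55.4 CPM in WT endoderm, and 17.8 CPM in arid4b∆ mesoderm, against 81.4 CPM in WT mesoderm. Its log2 fold changes were −2.45 ± 0.15 and −2.17 ± 0.14 (edgeR adjusted p = 3.1e-10 and 1.21e-09). Fras1 stood at −0.79 ± 0.18 in endoderm (edgeR adjusted p = 0.00602) and −1.84 ± 0.18 in mesoderm (3.91e-07), and the difference of 1.06 ± 0.26 between these effects was called (0.0466). Thbs1, thrombospondin, was higher in arid4b∆ by 2.27 ± 0.37 in endoderm (edgeR adjusted p = 0.000174) and 1.89 ± 0.35 in mesoderm (0.000489). Of 22 tested matrix proteases and inhibitors, 3 were higher and 3 lower in arid4b∆ endoderm, and 1 was higher and 4 lower in arid4b∆ mesoderm. Adamts9, a secreted proteoglycan-cutting protease, averaged 8.70 CPM in arid4b∆ endoderm, against 89.8 CPM in WT endoderm (log2 fold change −3.38 ± 0.15, edgeR adjusted p = 3.54e-12), and the difference from its effect in mesoderm was −3.10 ± 0.30 (2.63e-06). Between endoderm and mesoderm in WT, the counts called higher and lower were 0 and 0 for biosynthesis, 0 and 3 for receptors, 1 and 4 for other matrix genes and 2 and 2 for proteases, and in arid4b∆ they were 1 and 0, 1 and 3, 0 and 1, and 0 and 0. Over all genes the shares were 4.41% higher and 5.43% lower in WT, and 0.954% higher and 0.902% lower in arid4b∆.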

How the data were processed

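The authors deposited whole-number read counts per gene for 12 libraries in 1 table, with Entrez identifiers and symbols. Per the labels' protocols, total RNA was depleted of ribosomal RNA and a directional kit was used for the libraries. The submitters' processing notes name mm10, STAR and DESeq2, with no version or role. Which program counted the reads, and whether it used strand, is not given in the sources used here. Left out were the Rn45s row (79.7% to 82.4% of counts) and 26 genes with a date in place of a count in WT endoderm library 1 (none of the 58). No 2 libraries held identical values.

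Counts were tested with edgeR 4.0.16 in R 4.3.3 (trimmed mean of M values, filterByExpr with a minimum count of 10, quasi-likelihood test, all 12 libraries in 1 fit of 4 group means), and p-values were adjusted by Benjamini-Hochberg over 11635 genes, with a threshold of 0.05. Replicates varied by a biological coefficient of 9.71%. Standard errors were obtained as |log2 fold change|/√F. The test was checked on simulated data. Groups come from the sample titles. Mir6236 and Lars2 took 49.7% to 69.5% of the counts left without Rn45s. Counts of 3, 0.449 to 1.54 CPM, were taken as the floor, for counting error only.

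The genes named are 12 core genes whatever their result, each other gene of the set that was called, and at most 4 called genes of each list. The set, the gene lists and the markers were chosen with earlier results of these data known. Alternatives were size factors by relative log expression, DESeq2 1.42.0, no filter, library sizes without Mir6236 and Lars2, the compared groups alone, a replicate block and each library left out. Leaving out library 1 of every group was added after seeing the data. The values of 1 gene of the set are not reported here. Gene positions and exon lengths are those of GENCODE M21 for the same build.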

Additional observations from a re-analysis of the deposited data

Results flagged for a closer look

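The effect of arid4b∆ on Hspg2, the perlecan gene, was called as different between the lineages by a test of the difference itself. The log2 fold change of arid4b∆ over WT was 0.55 ± 0.13 higher in endoderm than in mesoderm (edgeR quasi-likelihood test, adjusted p = 0.0410), with −0.52 in mesoderm, where every arid4b∆ library was below every WT library, and 0.03 in endoderm, where the libraries overlapped. The adjusted p lay between 0.0126 and 0.146 over the alternatives. The call was lost for most of the 12 libraries when each was left out alone. It was 1 call among 31 genes (3.23%), against 1.4% of all genes, which is near the background. The cause was not tested.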

How the results depend on the processing

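Of 1008 alternative values of the named genes, 906 kept their side of the threshold, 52 lost a call, 50 gained one, and none turned a called direction. Among the 906 were 54 values that were not called and changed sign. Another normalization, DESeq2 and library sizes without Mir6236 and Lars2 called the same genes of the set, except that DESeq2 did not call Col6a1 between the WT lineages. Without the filter on low counts, the genes called were 17 (arid4b∆ over WT in endoderm), 15 (in mesoderm), 5 (difference of the 2), 20 (endoderm over mesoderm in WT) and 5 (in arid4b∆), of 58 genes each; over all 19653 genes they were 1828, 2498, 377, 1500 and 483. Lama2 and Lamb3 were then among those called in endoderm, and Lama2, Lamc3 and Col13a1 in mesoderm. With the arid4b∆ groups alone in the fit, 2 genes were called between their lineages. Without library 1 of every group, 11 were called in mesoderm, 2 for the difference, 16 between lineages in WT and 3 in arid4b∆, and 260 and 370 over all genes for the difference and the arid4b∆ lineages. Leaving out a library gave 3 to 10 of the set in endoderm (3 without WT endoderm library 2, 5 without WT endoderm library 3), 4 to 9 in mesoderm (4 without arid4b∆ mesoderm library 2 or WT mesoderm library 3), 0 to 3 for the difference, 7 to 14 between lineages in WT and 0 to 3 in arid4b∆. Over all genes the same ranges were 836 to 1321, 1472 to 2467, 104 to 354, 741 to 1391 and 59 to 237. The cause of these changes was not tested.

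Libraries share replicate numbers, but same-numbered libraries deviated together only weakly (Pearson r across genes 0.171, 0.0940 and 0.0533 in endoderm, and 0.115, 0.0132 and 0.0675 in mesoderm), and not every library correlated best with its own number. Between lineages of a genotype each library did so, with r of 0.175, 0.0856 and 0.193 in arid4b∆ and 0.175, 0.0952 and 0.0546 in WT, a hint from the data and not from the design. With the replicate block, 15 genes of the set were called in endoderm, 12 in mesoderm, 4 for the difference, 17 between lineages in WT and 4 in arid4b∆, of 31 genes each; over all 11635 genes they were 1852, 2532, 345, 1310 and 377. Calls gained with the block included Nid1 (edgeR adjusted p = 1.42e-05), Col4a2 (0.00160) and Fn1 (0.0435) in endoderm, Lama1 (0.00142) and Fn1 (0.0425) in mesoderm, Lama5 (0.0159) and Fn1 (0.0163) for the difference, and Lama1 (0.00720) and Col4a2 (0.0215) between the WT lineages. Between the genotypes, the block also gained Col6a1, Col6a2 and Col6a3 in both lineages and Col5a1 in endoderm. At this depth 27 of the 58 genes fell below the filter on low counts, and differences in them were not detectable with it.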
